A study of Mus musculus with 4 samples.

Results

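Ccr2+ macrophages without Lyve1 are described here in 2 single-cell RNA-seq libraries of mouse lower limb vasculature, one from wild-type (WT) and one from tumor necrosis factor transgenic (TNF-Tg) mice. Members were chosen by these measured values: a cell held at least 10 unique molecular identifiers (UMIs) of *C1qa*, *C1qb* and *C1qc* together, at least 2 UMIs of *Ccr2*, at most 2 UMIs of *Lyve1*, *Cd209f* and *Cd209d* together, under 5 UMIs of *Ear2*, *Retnla* and *Cd226* together, and under 20 UMIs of *Dcn* per 10000. A UMI is a tag that marks 1 captured mRNA molecule, so these values are counts of molecules per cell. The rule was met by 162 cells of the WT library and by 163 cells of the TNF-Tg library, 325 of the 8879 cells in both. The libraries hold cells released from popliteal lymphatic vessels and superficial saphenous veins with Accumax and sorted for high forward scatter, high side scatter or both. The WT mice are labelled C57BL6, the study's methods give a C57BL/6J background for all mice, and the TNF-Tg mice carried a TNF transgene, a model of inflammatory-erosive arthritis. Each library pooled 3 male mice, and the labels give an age of 9 months for both groups. With 1 library per genotype, condition and library cannot be told apart, no test between them was possible, and the intervals below are 95% intervals that cover counting error only.

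CCR2 is the receptor through which monocytes follow the chemokine CCL2 out of the bone marrow and blood into tissue, and macrophages that still carry it are usually of monocyte origin. LYVE1 is a hyaluronan receptor that marks resident macrophages along vessel walls, which renew with little monocyte input. Complement C1q is made by macrophages and hardly by monocytes, while the lipid receptor TREM2 and the high-affinity IgG receptor FCGR1 are found on macrophages, FCGR1 on monocytes too. Reading C1q and *Ccr2* together, without *Lyve1*, is a way to separate monocyte-derived from resident perivascular macrophages.

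The genes of the rule are given as a description, since they chose the cells. Members held a median of 9 UMIs of *Ccr2* in the WT library (range 2 to 64) and of 22 UMIs in the TNF-Tg library (2 to 63). The sum of the C1q genes had a median of 139.5 UMIs in WT members (12 to 370) and of 60 UMIs in TNF-Tg members (10 to 254). The *Lyve1* and *Cd209* sum was 0 in 117 of the 162 WT members and in 155 of the 163 TNF-Tg members. TNF-Tg members thus had more *Ccr2* and less C1q per cell than WT members, and they lay nearer to the C1q threshold. At that edge, 17 TNF-Tg members held 10 to 14 C1q UMIs, and 16 cells with 5 to 9 UMIs met every other condition. The WT library had 3 and 4 such cells. At the *Ccr2* edge, 14 WT members and 3 TNF-Tg members held exactly 2 UMIs, and 17 WT cells and 1 TNF-Tg cell stayed outside with 1 UMI. At the *Lyve1* edge, 7 WT members and 2 TNF-Tg members had 2 UMIs, against 15 WT cells and 1 TNF-Tg cell outside with 3.

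**Figure D1:**
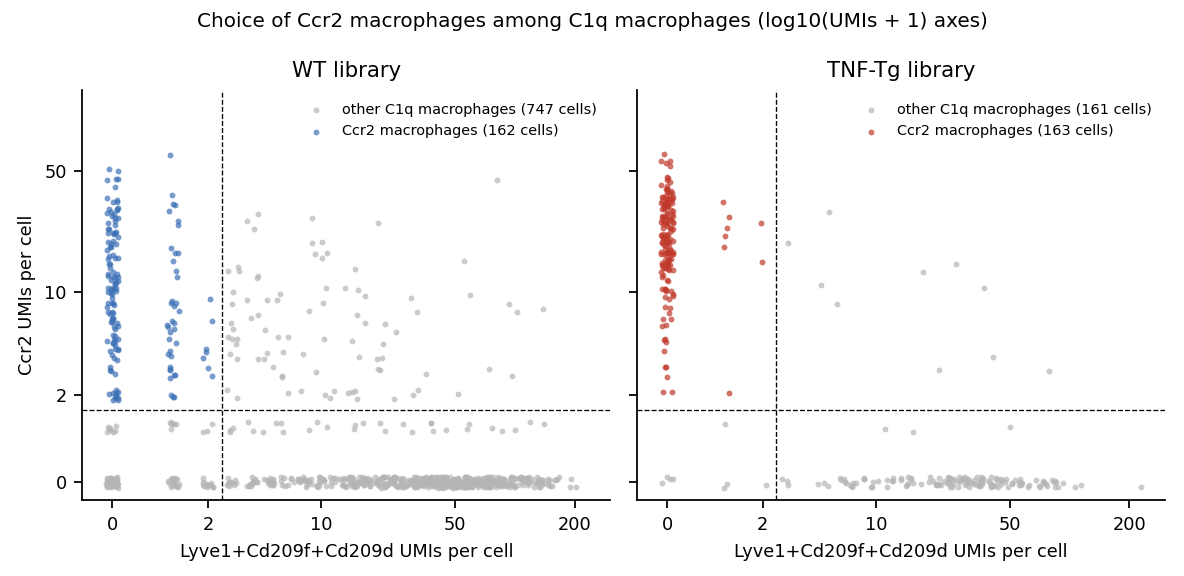
Each point is 1 C1q-positive cell of the WT (left) or TNF-Tg library (right), plotted by UMIs of Lyve1, Cd209f and Cd209d (horizontal) and of Ccr2 (vertical), both on log10(UMIs + 1) axes with a small random shift of the points. Dashed lines mark the thresholds, and the coloured cells above and left of them are the 162 WT and 163 TNF-Tg members.

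WT members carried 1884590 UMIs in total, with a median of 11394.5 UMIs per cell (1372 to 26494) and 3028.5 genes. TNF-Tg members carried 2607014 UMIs, with a median of 15237 UMIs per cell (2536 to 33521) and 3513 genes. Mitochondrial genes took a median of 1.17% of UMIs per WT member and 1.26% per TNF-Tg member. Ribosomal protein genes took 18.5% and 21.2% of the summed UMIs. No WT member and 2 TNF-Tg members were called doublets by Scrublet, which called 2.496% of all WT and 2.18% of all TNF-Tg cells, and predicted doublets were kept. The libraries shared 2 cell barcodes, neither of which belonged to a member.

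Ccr2+ macrophages made up a larger share of the TNF-Tg than of the WT library, where fewer cells of other types and more cells of this type cannot be told apart. Of 5488 cells in the WT library 2.95% were members [2.52–3.43], and of 3391 cells in the TNF-Tg library 4.81% [4.11–5.58] (exact Clopper-Pearson intervals), a log2 ratio of 0.70 [0.38–1.03]. Among the C1q-positive macrophages alone, which met the *Dcn*, C1q and *Ear2* conditions, members made up 17.8% in WT [15.4–20.5], out of 909 cells, and 50.3% in TNF-Tg [44.7–55.9], out of 324. The resident counterpart, C1q-positive macrophages with over 2 UMIs of *Lyve1*, *Cd209f* and *Cd209d* (Lyve1/Cd209 macrophages), were 651 cells of the WT library (11.9%) and 153 cells of the TNF-Tg library (4.51%), with a log2 ratio of the shares of −1.39. No *Ccr2* limit was set for them, and 88 of these WT cells and 10 of these TNF-Tg cells held at least 2 *Ccr2* UMIs. Ly6c2 monocytes were taken as cells with at least 2 UMIs of *Ly6c2*, at least 2 UMIs of *Ccr2* and under 10 C1q UMIs. They also held under 50 UMIs of *S100a8* and *S100a9* together and met the *Dcn* and *Ear2* conditions. These monocytes were 63 cells of the WT library (1.15%) and 503 cells of the TNF-Tg library (14.8%). The difference in the share of all cells changed with thinning of the cells to equal depth and with the C1q threshold. With every cell thinned to 5000 UMIs before the rule was applied, 153 WT and 118 TNF-Tg members remained. The log2 ratio of the share was then smaller, as given at the end. With at least 50 C1q UMIs, 140 WT and 92 TNF-Tg members remained and the log2 ratio of the share was 0.09, while the share among C1q-positive macrophages was still 17.2% in WT and 41.1% in TNF-Tg.

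The label was checked on genes that the rule did not use. *Fcgr1* stood at 243 counts per 1000000 UMIs (CPM) in WT members [221–266] and at 207 CPM in TNF-Tg members [190–225]. *Trem2* was 195 CPM [176–216] and 146 CPM [131–161] (exact Poisson intervals). Stromal cells of the same libraries, taken as cells with at least 20 *Dcn* UMIs per 10000, held 2.87 and 2.77 CPM of *Fcgr1* and 2.04 and 3.04 CPM of *Trem2*. After each cell was thinned to 5000 UMIs, *Fcgr1* was seen in 59.7% of 154 WT members and 63.5% of 159 TNF-Tg members, and in 0.726% and 0.686% of stromal cells. Without thinning, these shares were 78.4% and 87.1% of members and 1.97% and 1.46% of stromal cells, at median depths of 14766 and 11855 UMIs for the stromal cells. The further macrophage genes *Adgre1* (F4/80), *Mertk* and *Csf1r* (the receptor of macrophage colony-stimulating factor) were at 333, 65.3 and 898 CPM in WT members. In TNF-Tg members, *Adgre1* was at 191 CPM, *Mertk* at 31.5 CPM and *Csf1r* at 346 CPM. Monocytes held *Fcgr1* at 126 and 50.4 CPM, *Trem2* at 55.9 and 99.7 CPM, *Adgre1* at 80.3 and 71.1 CPM, *Mertk* at 1.43 and 1.70 CPM and *Csf1r* at 307 and 380.4 CPM. Of these 5 genes, *Mertk* differed most between members and monocytes, and *Csf1r* was no higher in TNF-Tg members than in TNF-Tg monocytes. The 15 genes of the macrophage list summed to 23354 and 15897.5 CPM in members and to 29554 and 25135 CPM in monocytes, most of it *Lyz2* there. Without *Lyz2*, the other 14 genes summed to 9404 and 8693 CPM in members and to 5922 and 5977 CPM in monocytes.

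Markers of other cell types were low, with some exceptions. The 6 T cell genes summed to 0 CPM in WT members and to 1.15 CPM in TNF-Tg members, and the 6 endothelial genes to 6.37 and 3.84 CPM. Among 4 B cell genes, *Cd79b* alone was detected, at 36.1 and 18.8 CPM. For the 8 stromal genes the sums were 96.6 and 25.3 CPM, led by *Col1a2*, against 26175 and 22549.8 CPM in the stromal cells themselves. For the 7 neutrophil genes they were 363 and 81.3 CPM, led by *S100a9* in WT and by *S100a8* in TNF-Tg. The 7 genes of mast cells and basophils summed to 101 and 27.6 CPM, led by *Mcpt4*, and the 5 erythroid genes to 13.8 CPM in each. The sums of the 12 conventional dendritic cell genes were 182 and 62.1 CPM, led by *Batf3*. *Flt3*, the receptor that marks dendritic cells and their precursors, had 5 UMIs in each library, and 3 of the 12 genes in WT and 5 in TNF-Tg were at 0. Monocyte genes were present at an intermediate level. *Ly6c2* was 59.4 CPM in WT members and 73.3 CPM in those of TNF-Tg, against 1041 and 831 CPM in the monocytes and 5.12 and 20.5 CPM in the Lyve1/Cd209 macrophages. Since the monocytes were chosen by *Ly6c2*, their level of this gene is a description. *Plac8* was 275 and 308 CPM, against 2401 and 2188 CPM in monocytes. Without the cells that held any *Flt3* or *Cd209a* UMI or at least 3 UMIs of *Ly6c2* and *Plac8*, 94 WT and 73 TNF-Tg members remained and the log2 ratio of the share of all cells was 0.33.

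**Figure D2:**
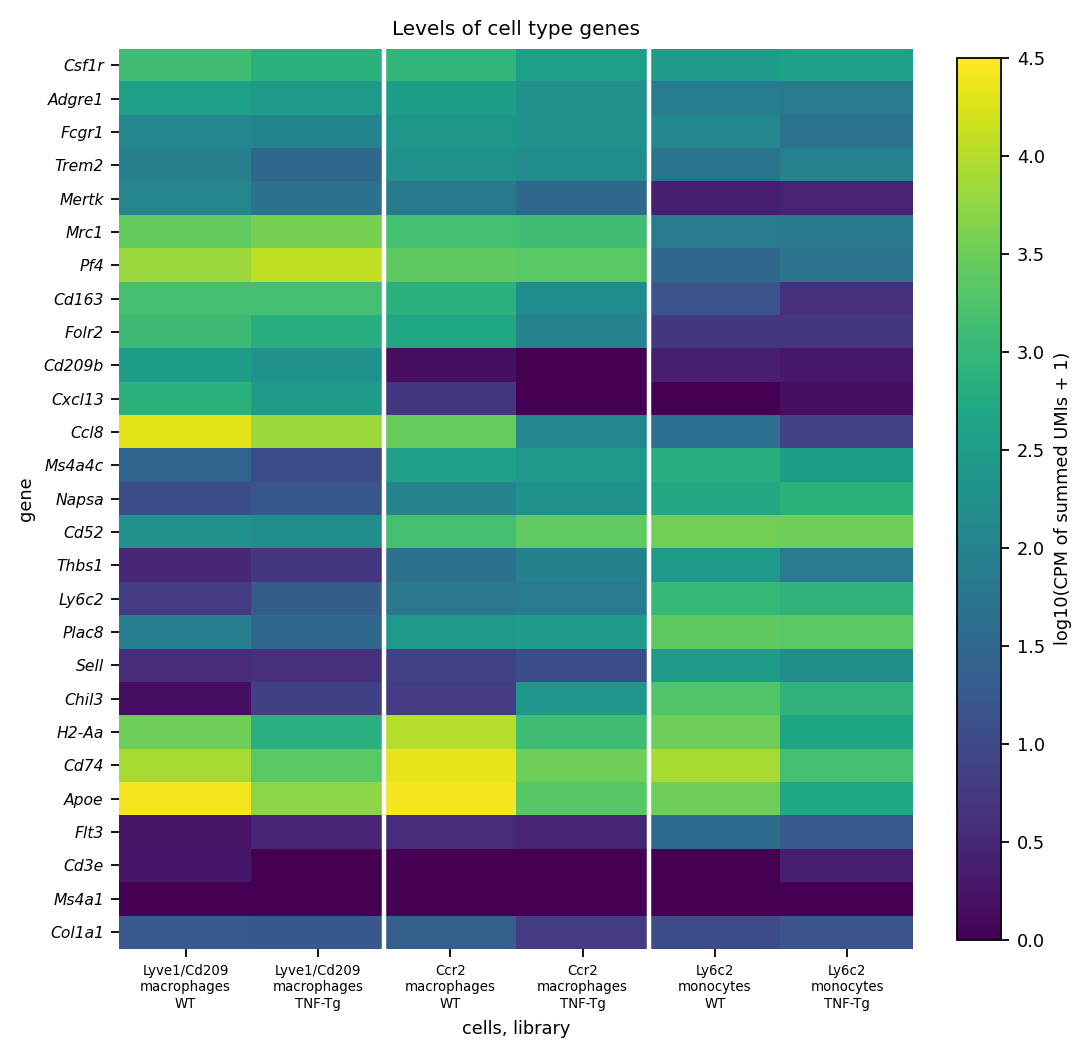
Colour gives log10(CPM of summed UMIs + 1) for cell type genes (rows) in Lyve1/Cd209 macrophages, Ccr2+ macrophages and Ly6c2 monocytes of the WT and TNF-Tg libraries (columns). Ccr2+ macrophages share Mertk, Mrc1 and Pf4 with the Lyve1/Cd209 macrophages and Napsa, Cd52 and Thbs1 with the monocytes, while Cd3e and Ms4a1 are at 0 in both of their columns.

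Beyond the genes of the rule, Ccr2+ macrophages were set beside the Lyve1/Cd209 macrophages of the same library. This contrast was made by the rule and is a description. Of 5156 genes with at least 100 UMIs over both populations in each library, 1.34% were at least 2-fold higher and 2.42% at least 2-fold lower than in Lyve1/Cd209 macrophages in both libraries, which is 69 and 125 genes. A gene could pass by its level in 1 population alone. The Lyve1/Cd209 macrophages summed to 8206926 UMIs in WT and 1952213 UMIs in TNF-Tg, against 1884590 and 2607014 UMIs for members. The balance of the 69 and 125 genes therefore depends on this filter. Most of the 12 highest genes were also abundant in the monocytes, which were chosen by *Ccr2* too. *Sirpb1c*, of the signal regulatory protein family, was higher by a log2 ratio of 5.14 in WT and 4.505 in TNF-Tg, and *Thbs1*, which encodes thrombospondin 1, by 4.41 and 4.502. *Ms4a4c*, a membrane protein of the MS4A family, followed with 3.74 and 4.74, at 369.8 and 259.7 CPM in members against 27.7 and 9.73 CPM in Lyve1/Cd209 macrophages. The aspartic protease *Napsa* (3.27 and 3.71), the leukocyte actin-binding protein *Lsp1* (3.06 and 3.17), the lectin *Clec4b1* (3.05 and 3.56) and the surface glycoprotein *Cd52* (2.94 and 3.98) came next on the log2 scale. The remaining 5 were *Gngt2*, *Cd300c2*, *Hopx*, *Tmsb10* and *Sorl1*, with log2 ratios between 2.63 and 4.31. *Sirpb1c*, *Ms4a4c*, *Clec4b1* and the *Cd209* genes belong to gene families whose members may share reads, so their counts may be uncertain, which was not tested.

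The 12 lowest genes were led by C-type lectins of resident macrophages. The C-type lectin *Cd209b* had 1 UMI in WT members and none in TNF-Tg members, against 2655 and 361 UMIs in the Lyve1/Cd209 macrophages. *Cd209e* had none in either library, against 469 and 101 UMIs, at least 35.9-fold and 45.0-fold lower when a count of 0 is read as 3 UMIs over the sum. *Cxcl13*, the chemokine that attracts B cells, had 7 UMIs in WT and none in TNF-Tg members, against 757 and 306 CPM in the Lyve1/Cd209 macrophages. *Cd209g* had 8 and 1 UMIs, and *Cd209a* was lower by log2 ratios of −3.73 and −5.01. The complement regulator *Cd55* and the terminal complement component *C6* had 7 and 15 UMIs in WT members and none in TNF-Tg members. The gelatinase *Mmp9* was at 14.3 and 11.1 CPM in members, against 233 and 370.3 CPM in Lyve1/Cd209 macrophages. *Dmpk*, *Adamtsl5*, *Dnm1* and *Egfr* completed the 12, each with 12 or fewer UMIs in either library.

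The 10 most abundant genes outside the rule, taken by the smaller CPM of the libraries, held myeloid and housekeeping genes. *Lyz2* (lysozyme) stood at 13950.5 CPM in WT members and 7204 CPM in those of TNF-Tg, *Tmsb4x* (thymosin beta 4) at 12540.1 and 17770.1 CPM, and *Actb* at 5604 and 11406 CPM. The ferritin chains *Fth1* (6119 and 6144 CPM) and *Ftl1* (5967 and 8279.97 CPM), the Fc receptor gamma chain *Fcer1g* (3162 and 4273 CPM), *Tpt1* (5474 and 3671 CPM), *Fau* (6576 and 6258 CPM) and the noncoding RNA *Malat1* (14981 and 10313 CPM) were among the others, with *Cd74*. Since each molecule is counted once at its 3′ end, levels of different genes were not divided by length.

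The comparison of TNF-Tg with WT members sets cells that met the same rule side by side, where a different mix of cells and a different level per cell cannot be told apart. Of 6900 genes with at least 50 UMIs in both sums together, 425 were at least 2-fold higher in TNF-Tg members (6.16%) and 636 at least 2-fold lower (9.22%). The median log2 ratio over all 6900 genes was −0.02. TNF-Tg members had far less RNA of the MHC class II genes, of *Apoe* and of several genes of resident macrophages, and more of *S100a4*, *S100a6* and *S100a11*, of several glycolytic enzymes and of several monocyte genes. The percentages above are the background against which the counts of the gene lists below are given, and no list was tested.

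**Figure D3:**
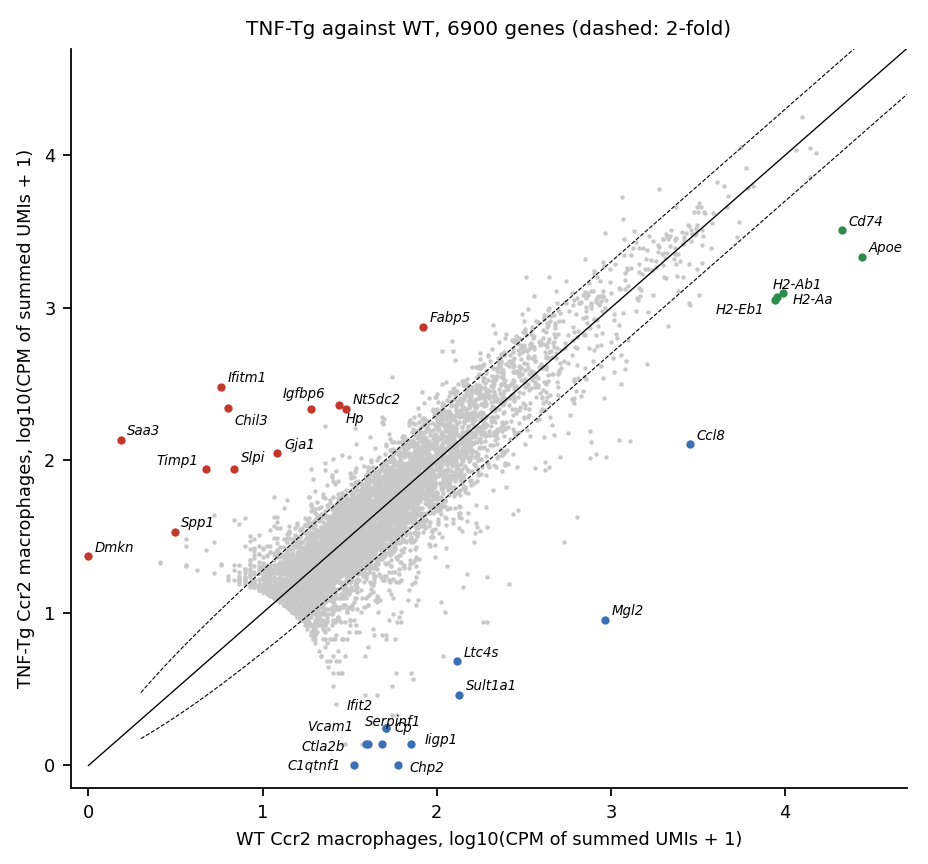
Each grey point is 1 of 6900 genes by its level in WT (horizontal) and TNF-Tg (vertical) Ccr2+ macrophages, on log10(CPM of summed UMIs + 1) axes, with the solid line at equal levels and dashed lines at 2-fold. Red and blue mark the 12 highest and 12 lowest genes by the named rule and green marks Cd74, Apoe, H2-Aa, H2-Ab1 and H2-Eb1, which lie below the 2-fold line at the abundant end.

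Genes of MHC class II, which present antigen to CD4+ T cells, were lower in TNF-Tg members throughout. Of 8 listed genes, 7 were measured with at least 50 UMIs and all 7 were at least 2-fold lower, with a median log2 ratio of −2.70. The alpha chain *H2-Aa* (ENSMUSG00000036594, chr17:34282744-34287823 of mm10, minus strand) was 9807 CPM in WT members [9667–9950] and 1254 CPM in TNF-Tg members [1211–1298], 7.82-fold lower. The beta chains *H2-Ab1* (9001 and 1169 CPM) and *H2-Eb1* (8801 and 1118 CPM) were 7.70-fold and 7.87-fold lower. The invariant chain *Cd74*, which escorts class II molecules to the endosome, was 21122 CPM in WT members against 3239.7 CPM in TNF-Tg members. *Ciita*, the coactivator that switches on the class II genes, was 175 CPM [157–195] and 33.4 CPM [26.7–41.2]. The peptide exchange factors *H2-DMa* and *H2-DMb1* differed less, with log2 ratios of −1.28 and −1.26. *H2-DMb2* had 11 and 15 UMIs, too few to be measured.

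Class II RNA was lower in the TNF-Tg library in the other populations too. Over the same 7 genes, the median log2 ratio was −2.16 in Lyve1/Cd209 macrophages, −2.51 in Ly6c2 monocytes and −1.996 in stromal cells, in which class II messages are few. Lyve1/Cd209 macrophages held *H2-Aa* at 3215 and 719 CPM, monocytes at 3177 and 449 CPM, and stromal cells at 168 and 39.5 CPM. Ccr2+ macrophages were the highest of these populations in either library, and their TNF-Tg level lay below the WT level of the others, stromal cells apart. Free RNA from broken cells reaches every droplet, and its part in these values was not tested.

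The promoters of *H2-Eb1*, *H2-Aa* and *H2-DMb1* are shown because each measured class II gene was at least 2-fold lower in both macrophage populations. Those of *H2-Ab1*, *Cd74* and *Ciita* were not analysed here. They are taken from RefSeq (GRCm38.p6), as the 150 bases before the start of the gene, 5′ to 3′ on the strand of the gene. *H2-Eb1* lies at chr17:34305717-34305866 (plus strand), *H2-Aa* at chr17:34287824-34287973 (minus strand) and *H2-DMb1* at chr17:34153041-34153190 (plus strand). Capitals mark TGATTGG, the Y box that the factor NF-Y reads, and AACTGAT, letters of the X box that the RFX complex reads.
H2-Eb1: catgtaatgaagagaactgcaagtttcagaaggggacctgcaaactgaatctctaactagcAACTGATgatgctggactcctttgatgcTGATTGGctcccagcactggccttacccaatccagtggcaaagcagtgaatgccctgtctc
H2-Aa: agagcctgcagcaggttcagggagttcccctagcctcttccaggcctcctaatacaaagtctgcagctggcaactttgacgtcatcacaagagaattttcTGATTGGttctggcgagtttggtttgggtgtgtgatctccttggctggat
H2-DMb1: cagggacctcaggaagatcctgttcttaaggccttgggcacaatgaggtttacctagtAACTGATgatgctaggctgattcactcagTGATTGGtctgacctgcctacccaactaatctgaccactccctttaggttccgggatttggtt
The Y box begins 61 bases before the start in *H2-Eb1*, 50 bases in *H2-Aa* and 63 bases in *H2-DMb1*, and the X box letters begin 89 bases before the start in *H2-Eb1* and 92 bases in *H2-DMb1*. Searched on both strands of the 250 bases before the start, TGATTGG was found in 7.23% of 32851 promoters, AACTGAT in 2.09% and both in 0.222%, where the motifs may share the letters TGAT. *H2-Aa* holds the Y box without AACTGAT, as does *H2-DMb2*, and neither was found for *H2-DMa*. These are matches of letters, not sites of binding.

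Class II RNA varied widely from cell to cell in TNF-Tg members. After thinning to 5000 UMIs, which left out 8 WT and 4 TNF-Tg cells, the sum of *H2-Aa*, *H2-Ab1*, *H2-Eb1* and *Cd74* had a median of 240.5 UMIs in WT members (quartiles 189.75 and 305.75, range 5 to 475). TNF-Tg members had a median of 9 UMIs (quartiles 1 and 40.5, range 0 to 342). The ranges overlapped, but 4 of 159 TNF-Tg members lay above the WT median. At least 1 UMI of the 4 genes was seen in each of the 154 WT members and in 121 TNF-Tg members (76.1%), against 40.8% of stromal cells in WT and 14.5% in TNF-Tg. Before thinning, the share of TNF-Tg members was 90.2%. Across the 154 WT members, class II RNA was lower where the resident macrophage list was higher (Spearman −0.61), and the corresponding value over 159 TNF-Tg members was −0.23. Points of 1 library share their depth and free RNA, so these values describe the libraries and carry no test.

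**Figure D4:**
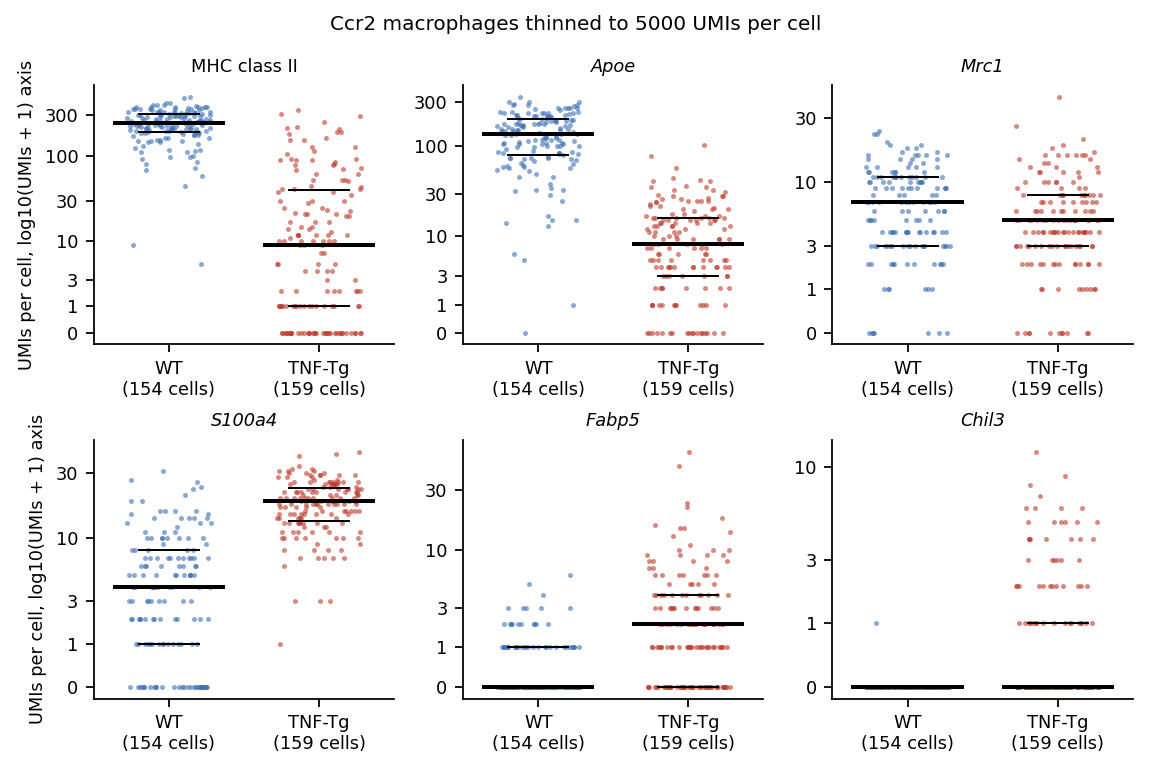
UMIs per cell after thinning each cell to 5000 UMIs, on log10(UMIs + 1) axes, for the MHC class II sum, Apoe, Mrc1, S100a4, Fabp5 and Chil3 in 154 WT and 159 TNF-Tg Ccr2+ macrophages. Each point is 1 cell, the thick line is the median and the thin lines are the quartiles, with class II medians of 240.5 and 9 UMIs and Mrc1 medians of 7 and 5 UMIs.

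*Apoe*, the lipoprotein that carries lipid out of macrophages, was the gene with the most UMIs in WT members. It stood at 27645 CPM in WT members [27408–27883] and at 2164 CPM in TNF-Tg members [2108–2221], 12.8-fold lower. In thinned cells the medians were 135.5 and 8 UMIs, and none of 159 TNF-Tg members reached the WT median. The log2 ratio of *Apoe* was −3.68 in Ccr2+ macrophages, −2.30 in Lyve1/Cd209 macrophages, −2.78 in monocytes and 0.06 in stromal cells, where it was 971 and 1014 CPM. Within the list of *Trem2* and lipid handling, 7 of 15 measured genes were at least 2-fold lower and 2 at least 2-fold higher, with a median log2 ratio of −0.96. The phospholipid transfer protein *Pltp* (1295 and 132 CPM) and the cholesterol exporters *Abca1* (439 and 89.4 CPM) and *Abcg1* (90.7 and 26.5 CPM) were lower, as was the lipoprotein lipase *Lpl* (252 and 116 CPM). The fatty acid-binding protein *Fabp5* was 9.11-fold higher, at 82.2 CPM [69.8–96.3] in WT members against 749 CPM [716–783]. *Spp1*, which encodes osteopontin, had 4 UMIs in WT and 86 UMIs in TNF-Tg members. *Gpnmb*, often found with these genes in lipid-laden macrophages, had only 5 and 14 UMIs. *Trem2* itself differed by a log2 ratio of −0.42 [−0.63 to −0.21], less than 2-fold.

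The list of resident perivascular macrophage genes split. Of 11 measured genes, 6 were at least 2-fold lower in TNF-Tg members and none at least 2-fold higher, with a median log2 ratio of −1.39, against −0.12 for the same 11 genes in Lyve1/Cd209 macrophages. *Mgl2*, the galactose-type lectin CD301b, was 921 CPM in WT members and 8.06 CPM in TNF-Tg members, 114-fold lower. Its relative *Clec10a* (940.3 and 104 CPM), the haemoglobin scavenger receptor *Cd163* (757 and 155 CPM), the folate receptor *Folr2* (508 and 104 CPM) and *Gas6*, a ligand of AXL and MERTK, (417 and 85.5 CPM) were also lower. In Lyve1/Cd209 macrophages *Mgl2* was also lower, at 753 and 368 CPM, while *Cd163* was 1498 and 1442 CPM and *Gas6* 923 and 848 CPM. The mannose receptor *Mrc1* did not follow this pattern, at 1446 CPM in WT members [1393–1502] and 1344 CPM in TNF-Tg members [1300.3–1389.7], nor did the platelet factor *Pf4*, at 2441 and 2247 CPM. *Timd4* and *Vsig4* had 0 UMIs in both, which allows up to 1.59 CPM in WT members and 1.15 CPM in those of TNF-Tg (3 UMIs). Of 10 measured scavenger and efferocytosis genes, 5 were at least 2-fold lower and none at least 2-fold higher. The receptor tyrosine kinase *Axl*, which takes up dying cells, was 70.6 CPM in WT members against 3.07 CPM, and its relative *Mertk* 65.3 and 31.5 CPM. The scavenger receptor *Msr1* had a log2 ratio of 0.72.

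Most monocyte genes were higher in TNF-Tg members. Of 13 measured genes, 8 were at least 2-fold higher and 1 at least 2-fold lower, with a median log2 ratio of 1.54. Over the 8 of these genes that were also measured in Lyve1/Cd209 macrophages, the medians were 1.30 and 0.24. Over 14 measured genes, the median was 0.91 in stromal cells and 0.12 in monocytes. The chitinase-like protein *Chil3* had 10 UMIs in WT and 575 UMIs in TNF-Tg members, 5.31 and 221 CPM (log2 ratio 5.38 [4.49–6.45]). In monocytes it was lower in the TNF-Tg library, at 1959.8 and 850.2 CPM. A *Chil3* UMI was seen in 0.649% of thinned WT members and 35.2% of thinned TNF-Tg members, against 0.242% and 1.18% of stromal cells. Haptoglobin (*Hp*) had 50 and 599 UMIs, 8.66-fold higher in TNF-Tg members, and the proteoglycan *Vcan* was 21.8 CPM in WT members against 166 CPM. Fibronectin (*Fn1*) was 112 and 328 CPM, and the lectin *Clec4e* 27.6 and 107 CPM. *Ly6c2*, with a log2 ratio of 0.30 [−0.04 to 0.65], and *Plac8*, with 0.16 [0.00–0.32], differed by less than 2-fold. *Cx3cr1*, the fractalkine receptor, was lower, at 21.1 CPM against 74.3 CPM in WT members.

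The list of calcium-binding S100 proteins and annexins had 5 of 10 genes at least 2-fold higher in TNF-Tg members and none at least 2-fold lower (median log2 ratio 0.95). It shares *S100a4* and *S100a6* with the monocyte list, and it leaves out *S100a8* and *S100a9* of the neutrophil list, which were lower, with log2 ratios of −1.68 and −4.59. *S100a1* had a log2 ratio of −0.99. *S100a6* was 1887 CPM [1825–1949.9] in WT members against 5972 CPM [5878–6066], *S100a4* was 1167 and 3816 CPM, and *S100a11* was 325 and 1580.3 CPM. In thinned cells, *S100a4* had medians of 4 UMIs in WT and 19 UMIs in TNF-Tg members, and 155 of 159 TNF-Tg members exceeded the WT median. The log2 ratio of *S100a4* was 0.19 in Lyve1/Cd209 macrophages, 0.41 in monocytes and 2.10 in stromal cells.

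Most enzymes of glycolysis were higher in TNF-Tg members. Of 13 measured genes, 8 were at least 2-fold higher in TNF-Tg members and none at least 2-fold lower, with a median log2 ratio of 1.24, beside 0.79 in Lyve1/Cd209 macrophages. *Gapdh* was 443 CPM in WT members [414–474] and 1582 CPM in TNF-Tg members [1534–1631]. Pyruvate kinase (*Pkm*) was 122 and 601 CPM, phosphoglycerate kinase (*Pgk1*) 47.2 and 191 CPM, enolase (*Eno1*) 126 and 455 CPM, and lactate dehydrogenase (*Ldha*) 179.9 and 424 CPM. The hexokinases at the entry of the pathway, *Hk1* and *Hk2*, had log2 ratios of −0.10 and −0.65.

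The 12 genes named as highest in TNF-Tg members included *Chil3*, *Fabp5*, *Hp* and *Spp1* from the lists above. *Saa3*, an acute-phase serum amyloid, had 1 UMI in WT and 354 UMIs in TNF-Tg members, a ratio of 256-fold with a counting interval of the log2 ratio from 5.51 to 13.31. It was also higher in TNF-Tg stromal cells, at 1.84 and 215 CPM. The interferon-induced transmembrane protein *Ifitm1* had 9 and 792 UMIs, 63.6-fold higher, and was seen in 1.30% of thinned WT and 29.6% of thinned TNF-Tg members. Thinned stromal cells held an *Ifitm1* UMI in 2.32% of WT and 7.94% of TNF-Tg cells. Dermokine (*Dmkn*) had no UMI in WT and 59 UMIs in TNF-Tg members, at least 14.2-fold higher when the WT count is read as 3 UMIs. The metalloproteinase inhibitor *Timp1* had 7 and 226 UMIs, and stood at 58.0 and 555 CPM in stromal cells. The antiprotease *Slpi* had 11 and 228 UMIs and the gap junction protein *Gja1* (a connexin) had 21 and 288 UMIs, 14.98-fold and 9.91-fold higher. *Igfbp6*, which binds insulin-like growth factor II, was 18.0 CPM in WT members against 217 CPM. The same gene was far more abundant in stromal cells and ran the other way there, at 3773 and 2351 CPM, while in Lyve1/Cd209 macrophages it was 19.0 and 19.98 CPM. *Nt5dc2* had 55 and 566 UMIs, a log2 ratio of 2.90. Of the 12 genes, 9 were measured in Lyve1/Cd209 macrophages too. Log2 ratios there were 3.72 for *Timp1*, 2.96 for *Saa3*, 2.45 for *Fabp5*, 2.41 for *Hp*, 2.26 for *Gja1* and 1.76 for *Ifitm1*. *Igfbp6* (0.07), *Nt5dc2* (0.05) and *Slpi* (−0.0023) were the others, beside a median of 0.10 over all measured genes of that population. Among these genes, *Saa3*, *Timp1*, *Igfbp6* and *Gja1* are also made by stromal cells of the same libraries. The part of free stromal RNA in their values was not tested.

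The 12 genes named as lowest were led by *Mgl2*. *Ccl8*, a chemokine of resident macrophages, was the most abundant of them, at 2844 CPM in WT members [2768–2921] and 127 CPM in TNF-Tg members [113–141], 22.5-fold lower. In Lyve1/Cd209 macrophages *Ccl8* was 20381 and 6595 CPM. A *Ccl8* UMI was seen in 64.3% of thinned WT and 10.7% of thinned TNF-Tg members, and in 48.0% of stromal cells in each library. *Chp2*, a calcineurin B homologous protein, had 111 UMIs in WT and none in TNF-Tg members, at least 51.2-fold lower, and *C1qtnf1* had 61 and none, at least 28.1-fold lower. *Iigp1*, an immunity-related GTPase induced by interferon, had 132 UMIs in WT and 1 UMI in TNF-Tg members. *Serpinf1*, which encodes pigment epithelium-derived factor, had 90 and 1, *Ctla2b* 74 and 1, and the adhesion molecule *Vcam1* 72 and 1. The sulfotransferase *Sult1a1* had 252 and 5 UMIs, leukotriene C4 synthase (*Ltc4s*) 246 and 10, ceruloplasmin (*Cp*) 94 and 2, and *Ifit2* 95 and 2. In Lyve1/Cd209 macrophages the median log2 ratio over all measured genes was 0.10. These 12 genes had log2 ratios there from −2.58 for *Ifit2* and −2.41 for *Iigp1*, through −1.03 for *Mgl2*, to 0.36 for *Ctla2b*. *Vcam1* (−0.70), *Serpinf1* (−0.53), *Ltc4s* (−0.09) and *Ctla2b* differed by less than 2-fold there.

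Interferon-stimulated genes were lower in TNF-Tg members, with 15 of 19 measured genes at least 2-fold lower and none at least 2-fold higher (median log2 ratio −1.38). *Ifi27l2a*, the most abundant, was 2425 and 1280.4 CPM. The antiviral effectors *Ifit3* (148 and 16.9 CPM), *Ifit3b* (54 and 1 UMIs) and *Rsad2* (61.0 and 7.67 CPM) differed most besides *Ifit2*, and the regulator *Irf7* was 209 and 63.3 CPM. The median was −0.93 over 19 measured genes in Lyve1/Cd209 macrophages and −0.54 over 13 in monocytes. Over all measured genes, the medians of these populations were 0.10 and −0.02. Without the members that held *Flt3*, *Cd209a* or at least 3 UMIs of *Ly6c2* and *Plac8*, 9 of these genes were at least 2-fold lower. Fewer genes were measured in that subset, 4977 against 6900, so the 2 counts cannot be compared directly.

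Genes that respond to glucocorticoids were also lower. Of 6 measured, 5 were at least 2-fold lower, with a median log2 ratio of −2.35, beside −2.05 for the same 6 genes in Lyve1/Cd209 macrophages. *Klf9* had 109 UMIs in WT and 3 UMIs in TNF-Tg members, *Fkbp5* had 204 and 11, and *Tsc22d3*, which encodes GILZ, was 291 and 46.4 CPM. *Sgk1* was the exception, at 22.8 and 40.7 CPM.

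The chemokines, chemotactic receptors and NF-kB feedback genes that passed 2-fold were lower in TNF-Tg members, and cytokines had 1 gene each way. Most chemotactic receptors (6 of 8) and most TNF receptor and NF-kB feedback genes (13 of 16) stayed within 2-fold. Their median log2 ratios were −0.05 and −0.43, and over all genes 9.22% were at least 2-fold lower. Among 13 measured chemokines, 6 were at least 2-fold lower and none at least 2-fold higher, with a median log2 ratio of −0.12. *Ccl2*, the ligand of CCR2, was 1245 CPM in WT members [1195–1296] and 1769 CPM in TNF-Tg members [1719–1821], a log2 ratio of 0.51, and *Ccl7*, another CCR2 ligand, had a log2 ratio of 0.49. *Ccl12* (597 and 253 CPM), *Ccl24* (138 and 33.4 CPM) and *Cxcl16* (111 and 25.7 CPM) were lower, and *Ccl6*, the most abundant in TNF-Tg members, was 2374 and 4552 CPM. Of 8 measured chemotactic receptors, *Cx3cr1* and *Cxcr4* were at least 2-fold lower, while *Ccr1* (217 and 339 CPM) differed by less than 2-fold. Endogenous mouse *Tnf* had 22 UMIs in WT and 31 UMIs in TNF-Tg members (log2 ratio 0.03 [−0.81 to 0.88]), and *Il1b* 91 and 122 UMIs (−0.05 [−0.45 to 0.36]). Oncostatin M (*Osm*) was higher, with 14 and 66 UMIs, and *Il10* lower, with 47 and 21 UMIs. Among 16 measured TNF receptors and NF-kB feedback genes, none was at least 2-fold higher and 3 were at least 2-fold lower, which were *Nfkbiz* (163 and 28.0 CPM), *Tnfaip3* (34.0 and 9.59 CPM) and *Birc3* (74.8 and 22.2 CPM). The receptors *Tnfrsf1a* and *Tnfrsf1b* had log2 ratios of −0.33 and −0.52.

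Genes of sensing, degradation and iron handling varied by list. All 7 measured members of the *Ms4a* family and 4 of 6 Fc receptor genes stayed within 2-fold. Of 12 measured Toll-like receptors and adaptors, 4 were at least 2-fold lower, *Cd14* (456 and 169.9 CPM) among them, and 1, the adaptor *Myd88*, was at least 2-fold higher (49.9 and 124 CPM). Complement genes outside the rule had 3 of 9 at least 2-fold lower, with *C4b* at 141 and 13.8 CPM. Lysosomal proteases had 1 of 9 at least 2-fold higher, *Ctsl* (319.96 and 690.1 CPM), and none at least 2-fold lower, with a median log2 ratio of 0.22. Of 10 measured iron and haem genes, 2 were at least 2-fold lower, and the haem oxygenase *Hmox1* was 185 and 344 CPM. Among 3 osteoclast genes that were measured, none differed by 2-fold, and *Ctsk*, *Dcstamp* and *Calcr* were too low to be measured. *Mki67*, a gene of dividing cells, had 11 and 18 UMIs.

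Several immediate-early genes that tissue dissociation can induce were lower in TNF-Tg members, with 5 of 10 measured at least 2-fold lower and 1 at least 2-fold higher (median log2 ratio −1.02). *Egr1* was 824 and 109.7 CPM, *Jun* 1143 and 314 CPM, and *Ier3* 119 and 280.4 CPM. For the same 10 genes, the median was −0.52 in Lyve1/Cd209 macrophages. Handling of the tissue moves with the library, and its part in the differences above was not tested.

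**Figure D5:**
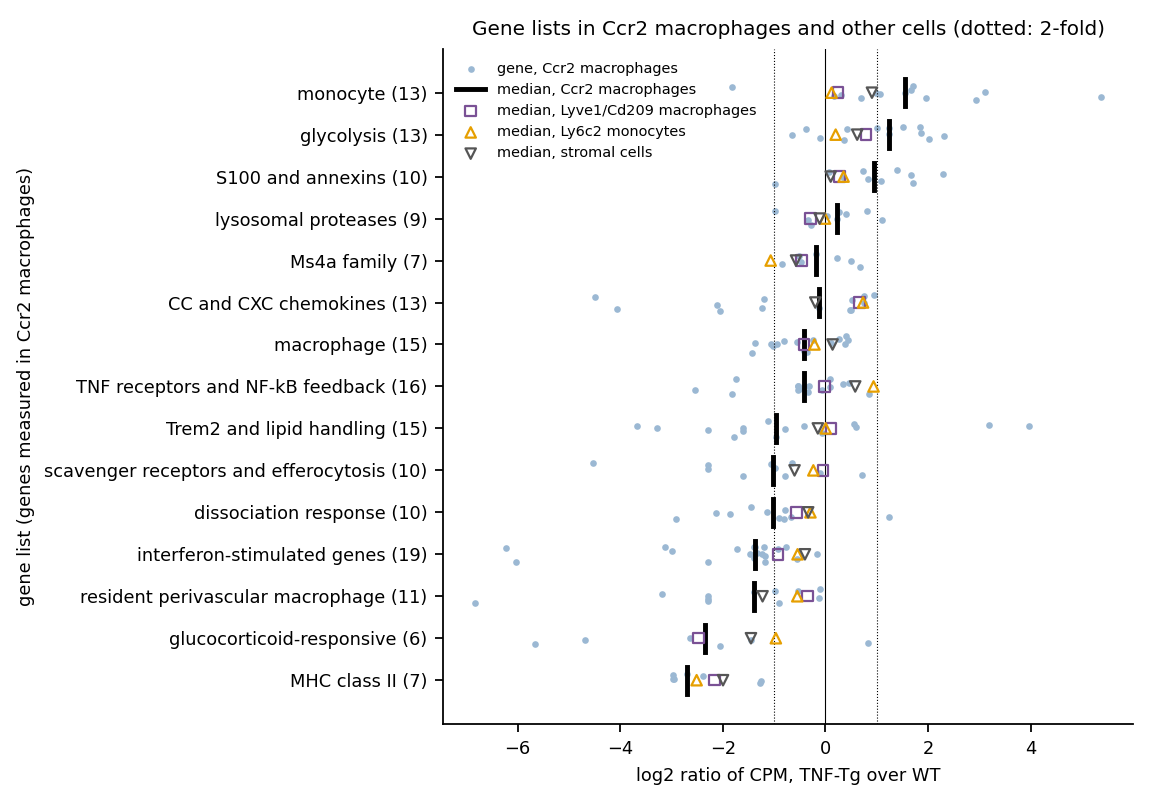
Log2 ratio of CPM, TNF-Tg over WT, for gene lists (rows, with the number of genes measured in Ccr2+ macrophages). Blue points are single genes and black bars medians in Ccr2+ macrophages, open symbols are medians in Lyve1/Cd209 macrophages, Ly6c2 monocytes and stromal cells, and dotted lines mark 2-fold. MHC class II has the lowest median (−2.70) and the monocyte list the highest (1.54), and for MHC class II each population has a median of −1.996 or lower.

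The remaining libraries, tdT1 and tdT2, labelled as enriched for the red fluorescent reporter tdTomato, hold few of these cells. The rule was met by 4 of 1504 cells in tdT1 (0.266% [0.0725–0.680]) and by 3 of 454 cells in tdT2 (0.661% [0.136–1.92]). Summed over these cells, *H2-Aa* reached 10911 CPM in the former and 13554 CPM in the latter, and *Apoe* was 5655 and 7152 CPM. So few cells allow no comparison with the WT and TNF-Tg libraries.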

How the data were processed

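Raw UMI counts per gene and cell were used as the authors deposited them, as 1 filtered matrix per library. The submitters' processing notes name mm10, Cell Ranger 3.1.0 and Seurat 4.0.3, while the matrix headers of the WT and TNF-Tg libraries give Cell Ranger 6.0.1. No cell was removed, and Scrublet (in scanpy 1.11.5) called doublets that were kept. Members were found by the rule, and their UMIs were summed per library and scaled to counts per 1000000 (CPM). Where a symbol was listed more than once, its most abundant row was used. CPM carried exact Poisson intervals, ratios exact conditional binomial intervals and shares Clopper-Pearson intervals (95%), and a count of 0 was read as at most 3 UMIs. These cover counting error only. With 1 library per genotype no test was run, and a gene was called at 2-fold.

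Genes needed 50 UMIs in both sums together. For the comparison with Lyve1/Cd209 macrophages they needed 100 UMIs over both populations in each library. Genes named were the 12 highest and 12 lowest by the interval bound nearest to 0 (mitochondrial, ribosomal protein, haemoglobin, immunoglobulin, Gm and Rik genes left out), the 12 highest and 12 lowest of the latter comparison by the smaller log2 ratio of the libraries, the 10 most abundant, and members of 35 gene lists. Members and lists were chosen with earlier results of these data known. For per-cell values each cell was thinned to 5000 UMIs (seed 42). Gene positions came from the GENCODE annotation of mm10 and promoters from RefSeq. Alternatives used edgeR 4.0.16 (TMM) and DESeq2 1.42.0 size factors for scaling alone. The code was tested on simulated counts in Python 3.11.15. Some genes of the lists are counted in them but not reported here by name.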

Additional observations from a re-analysis of the deposited data

Results flagged for a closer look

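Among the 24 genes named in TNF-Tg over WT, 9 of the 12 highest and all 12 lowest were measured in Lyve1/Cd209 macrophages too. For 2 of the genes measured in both, *Slpi* only nominally, the signs of the difference between libraries were opposite in Ccr2+ and Lyve1/Cd209 macrophages. The signs were also opposite for the shares of cells. With 1 library per genotype these differences were not tested. *Slpi* had a log2 ratio of TNF-Tg over WT of 3.91 in Ccr2+ macrophages and −0.0023, or no difference, in Lyve1/Cd209 macrophages. *Ctla2b* had log2 ratios of −6.68 and 0.36. The log2 ratio of the share of all cells was 0.70 for Ccr2+ macrophages and −1.39 for Lyve1/Cd209 macrophages. In the tdT1 library, which no comparison used, 4 cells met the rule.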

How the results depend on the processing

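Of 205 values recomputed under 17 alternatives, 178 were classed as the same, 27 as moved and 0 as reversed. Counts were classed as the same within a fixed tolerance of under 2-fold, and shares and log2 ratios within their counting interval. Only log2 ratios could be classed as reversed. The 27 moved values come first below. With at least 4 *Ccr2* UMIs, the WT share of all cells was 2.48%. With the *Lyve1* and *Cd209* sum at 0, it was 2.13%, and the log2 ratios of the share of all cells and of C1q macrophages were 1.10 and 1.89. Without cells holding *Flt3*, *Cd209a* or at least 3 UMIs of *Ly6c2* and *Plac8*, the WT and TNF-Tg shares were 1.71% and 2.153%, the same log2 ratios 0.33 and 1.12, the genes 2-fold higher and lower than in Lyve1/Cd209 macrophages 34 and 78, and the interferon-stimulated genes at least 2-fold lower 9. With every cell thinned before gating, the WT share was 3.46%, the log2 ratio of the share 0.34, genes lower in TNF-Tg 362, and glucocorticoid-responsive and interferon-stimulated genes lower 3 and 7. With at least 50 C1q UMIs, an alternative chosen after seeing the data, the TNF-Tg share was 2.71% and the log2 ratio of the share 0.089. A minimum of 20 UMIs gave 975 genes lower in TNF-Tg and 191 higher and 374 lower than in Lyve1/Cd209 macrophages. A minimum of 200 UMIs gave 243 higher and 217 lower in TNF-Tg, with 3 glucocorticoid-responsive and 7 interferon-stimulated genes lower, and no minimum gave 1952 higher and 2965 lower. These counts change with the number of genes tested. For the 24 genes named in TNF-Tg over WT, 0 of 381 values reversed and 25 moved past their interval. The median log2 ratio of all 6900 genes was −0.02 as reported, 0.08 with TMM factors and 0.11 with DESeq2 size factors. No paired analysis was possible because each genotype had 1 library.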
